A study of Mus musculus with 44 samples.

Results

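RING1B is the catalytic subunit of Polycomb repressive complex 1, and the regions described here are the stretches of 5 to 10 kb that it occupied in cultured mouse haematopoietic progenitor cells. They were chosen by width alone: every RING1B peak wider than 5000 bp and at most 10000 bp was taken. This gave 1094 domains, 4.38% of the 24987 RING1B peaks and, with 7.52 Mb, 18.9% of the bases those peaks cover. There were 3238 narrower peaks of 2 to 5 kb and 464 wider domains above 10 kb, which serve as neighbours for comparison.

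Polycomb repressive complex 1 places ubiquitin on histone H2A through RING1B and its paralogue RING1A. PCGF1 is the subunit that defines a variant form of this complex, which in mouse cells is known to be brought to unmethylated CpG islands by its partner KDM2B. H3K27me3 is the mark that Polycomb repressive complex 2 places on histone H3, and in blood progenitors both complexes are known for holding regulators of other lineages and stages silent.

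The study assayed 44 libraries in 23 groups, and 3 peak lists, each standing for 2 libraries, were used here. The PCGF1 list came from FLAG immunoprecipitation in Pcgf1 -/- IdHP cells given FLAG-PCGF1, so it shows a tagged protein put back into cells that lack their own. The RING1B list, made with an in-house antibody, and the H3K27me3 list came from Pcgf1 fl/fl IdHP cells, which carry loxP-flanked Pcgf1 alleles. All of these cells were of strain B6CBAF1/J, derived from bone marrow, and grown to passages 15 to 18 over a TSt4 stroma layer, with the cytokines IL7, SCF and Flt3L. The PCGF1 sites and the other 2 lists thus belong to different cells, and an overlap compares sites of 2 cell populations. The remaining 38 libraries, among them every Pcgf1 -/- RING1B and H3K27me3 library, were not analysed here. The cell type could not be checked against marker genes, since the lists hold no expression values.

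Each antibody has 1 list, so no value has a replicate error and no test was run. Intervals in parentheses after a share are exact 95% binomial (Clopper-Pearson) intervals, those after a density are exact 95% Poisson intervals, and those said to be of a median are 95% order-statistic intervals. All cover counting error only, over peaks that can lie beside each other and are not replicates. Read depth is unknown from these lists. Positions are read as mm9, and no genes were assigned to them.

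The domains were broad, and their RING1B enrichment lay a little above that of the list. Their median width was 6574 bp (interquartile range 5732 to 7861). The authors' fold enrichment over background had a median of 3.82 (interquartile range 3.50 to 4.47, whole range 1.76 to 15.6), beside 3.22 over all RING1B peaks. The median -log10 q, the authors' measure of the significance of a peak, was 3.94, and 380 domains reached 5. Width, fold and q come from the same peak call that selected the domains, so these values describe them and show no difference. The limits fall in a continuous range. Just inside the lower limit lay domains of 5003 and 5004 bp with folds of 3.21 and 3.65, and just outside it peaks of 4995 and 5000 bp with folds of 3.65 and 3.69. Just inside the upper limit lay domains of 9976 and 9990 bp with folds of 3.66 and 4.14, and just outside it domains of 10012 and 10015 bp with folds of 4.40 and 4.87. None of these 8 peaks held PCGF1, and all 8 touched H3K27me3. Over all domains 17.4% held PCGF1 and 91.0% touched H3K27me3.

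Nearly all domains lay on H3K27me3. Of the 1094 domains, 995 (91.0%, 89.1 to 92.6) shared at least 1 bp with an H3K27me3 region, beside 44.3% of all RING1B peaks and 42.2% (41.6 to 42.8) of the RING1B peaks that are not domains. Wider peaks have more bases with which to touch a region: the share was 72.6% (71.1 to 74.2) at 2 to 5 kb and 96.8% (94.7 to 98.2) above 10 kb. The H3K27me3 list is also extensive, with 135391 regions over 484 Mb. Even 20 kb beyond the edges of the domains it covered 42.8% of positions (40.7 to 44.9). Fewer domains held PCGF1. A PCGF1 peak touched 190 of the 1094 domains (17.4%, 15.2 to 19.7), beside 5.85% of all RING1B peaks and 5.32% (5.04 to 5.61) of those that are not domains. At 2 to 5 kb the share was 13.5% (12.3 to 14.7), and above 10 kb it was 25.6% (21.7 to 29.9).

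Per base, the order was different. The domains held 39.8 PCGF1 peaks per Mb of their sequence (35.4 to 44.5), counted by peak midpoint. That was below the 59.4 per Mb (54.7 to 64.3) of peaks of 2 to 5 kb, and the intervals did not overlap. It lay above the 31.4 per Mb (27.6 to 35.5) of domains wider than 10 kb, whose interval just reached that of the domains. The RING1B list as a whole had 46.1 per Mb (44.0 to 48.2). Over whole classes, a domain was thus more often touched by PCGF1 than a peak of 2 to 5 kb. It also held fewer PCGF1 peaks for its length. By distance to the nearest other RING1B peak, that order of densities did not hold throughout. Under 1 kb the domains held 26.1 per Mb (20.9 to 32.4) and peaks of 2 to 5 kb 19.0 (14.4 to 24.5), with overlapping intervals. At 1 to 20 kb the values were 35.4 (29.4 to 42.2) and 55.3 (49.2 to 62.1). Above 20 kb they were 108 (87.5 to 133) and 149 (131 to 169), whose intervals overlap. The share and density were higher among domains of stronger RING1B calls. Among domains of -log10 q of at least 5 the share with PCGF1 was 31.8% and the density 70.0 per Mb. With the stronger 50% of PCGF1 peaks the density was 22.9 per Mb, and a shortened list lowers it by construction.

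**Figure D1:**
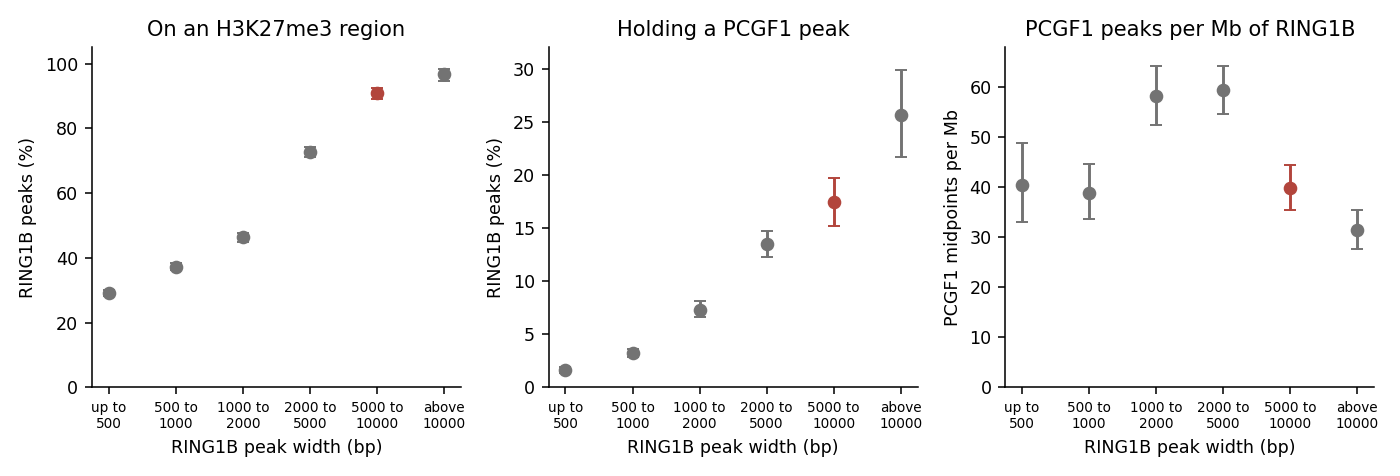
Share of RING1B peaks on an H3K27me3 region (left), share holding a PCGF1 peak (middle) and PCGF1 peak midpoints per Mb of RING1B sequence (right), by RING1B peak width in bp. Points are values for all peaks of a width class, bars are exact 95% binomial or Poisson intervals, and the domains of 5 to 10 kb are in red: they stand at 91.0% and 17.4%, but at 39.8 per Mb they lie below the 59.4 per Mb of peaks of 2 to 5 kb.

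The mark and PCGF1 together divided the domains into 4 classes. Most domains, 817 of 1094 (74.7%, 72.0 to 77.2), lay on H3K27me3 without PCGF1. Another 178 (16.3%, 14.1 to 18.6) had both, 87 (7.95%, 6.42 to 9.72) had neither, and 12 (1.10%, 0.568 to 1.91) had PCGF1 without the mark. PCGF1 was present in 178 of 995 domains on H3K27me3 (17.9%, 15.6 to 20.4) and in 12 of 99 off it (12.1%, 6.42 to 20.2), and these intervals overlap. The RING1B folds of domains on and off the mark lay close, with medians of 3.82 (interval of the median 3.79 to 3.87) and 3.87 (3.70 to 3.98).

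H3K27me3 lay under the domains in several layouts. The median domain had 72.1% of its bases covered (lower quartile 36.3%, upper quartile full cover), and over all domains together 64.9% of bases were covered. In 337 domains (30.8%, 28.1 to 33.6) the RING1B stretch lay wholly inside 1 longer H3K27me3 region, whose median width was 25170 bp. In 308 (28.2%, 25.5 to 30.9) it crossed 1 border of a region, so that RING1B ran out past the listed mark. A further 113 (10.3%, 8.59 to 12.3) held 1 whole, shorter region of 2350 bp at the median. The remaining 237 on the mark (21.7%, 19.3 to 24.2) lay across 2 or 3 separate regions, with RING1B continuing over the space between them. The listed extent of a region depends on the authors' caller: in the 1172 regions on domains, a median of 19.9% of the listed width stood above the caller's cutoff.

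PCGF1 varied with this layout. It was present in 87 of 337 domains inside 1 region (25.8%, 21.2 to 30.8), in 58 of 308 across 1 border (18.8%, 14.6 to 23.7) and in 16 of 113 holding a whole region (14.2%, 8.32 to 22.0). Of the 237 domains across several regions, 17 held PCGF1 (7.17%, 4.23 to 11.2). The interval of that class did not overlap those of the domains inside a region or across a border. The median width was 7119 bp across several regions and 6435 bp inside 1 region, and the median RING1B fold 3.87 and 3.80; the part of either in the shares was not tested. Domains across several regions held PCGF1 in a share below the 12.1% of domains with no mark at all, but these 2 intervals overlap. Among domains of -log10 q of at least 5 the shares were 47.9% inside 1 region and 13.3% across several.

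**Figure D2:**
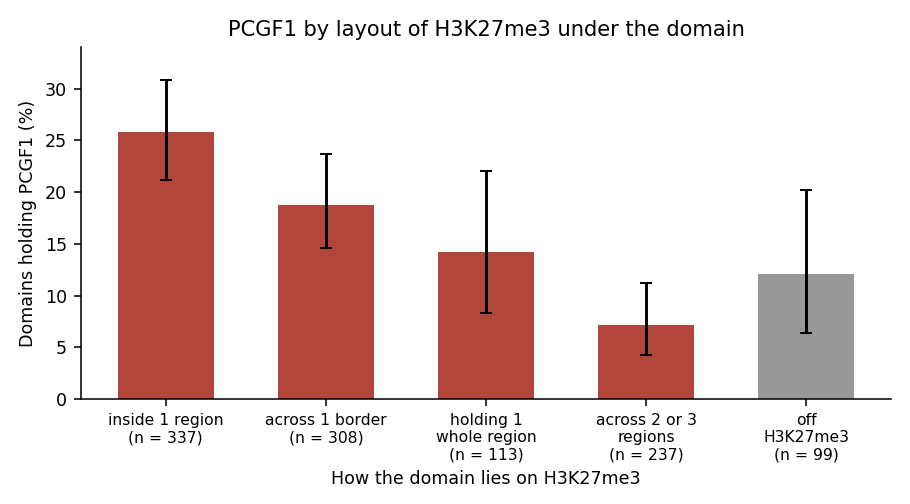
Percent of RING1B domains of 5 to 10 kb that hold a PCGF1 peak, by how the domain lies on H3K27me3, with the number of domains under each bar. Bars are values for all domains of a class and lines are exact 95% binomial intervals: the share is 25.8% inside 1 region and 7.17% across 2 or 3 regions.

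Over domains that hold PCGF1, H3K27me3 was centred. Just left of the domain's midpoint, H3K27me3 covered 158 of 190 domains with PCGF1 (83.2%, 77.1 to 88.2) and 570 of 904 without it (63.1%, 59.8 to 66.2). Just right of the midpoint the shares were 80.0% (73.6 to 85.4) and 61.2% (57.9 to 64.4). Outside the domain the 2 groups were close: 5 kb beyond the edges 55.0% (49.8 to 60.1) of positions were covered around domains with PCGF1 and 51.1% (48.7 to 53.4) around those without, and at 20 kb 42.9% and 42.8%. Coverage also rose to the centre in domains more than 20 kb from any other RING1B peak, with or without PCGF1. It was 56.2% near their left edge, 68.8% on either side of the centre and 62.5% near the right edge. In domains under 1 kb from another peak it was 62.9% near the left edge and 63.3% near the right edge. Just left of their centre it was 66.3%, and just right of it 64.0%. The part of this distance in the centring was not tested. The median domain was covered over 93.1% of its bases with PCGF1 (interval of the median 86.4% to full cover) and over 69.1% without it (64.5 to 71.9). The tallest H3K27me3 region on a domain also stood higher with PCGF1, at a median height of 151 (140 to 156), against 118 (115 to 121) without, in the authors' signal units of unstated scale. Those regions differed in width too, with medians of 16320 bp with PCGF1 and 9810 bp without. Among regions up to 5 kb the median heights were 82.3 (65.2 to 94.6) with PCGF1 and 85.9 (82.0 to 90.3) without, and among those of 5 to 10 kb 118 (98.2 to 141) with PCGF1 and 107 (102 to 111) without. At 10 to 20 kb they were 152 (140 to 160) with PCGF1 and 126 (123 to 130) without, and above 20 kb 170 (157 to 182) and 156 (149 to 164). The intervals stood apart at 10 to 20 kb and overlapped in the other 3 classes.

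**Figure D3:**
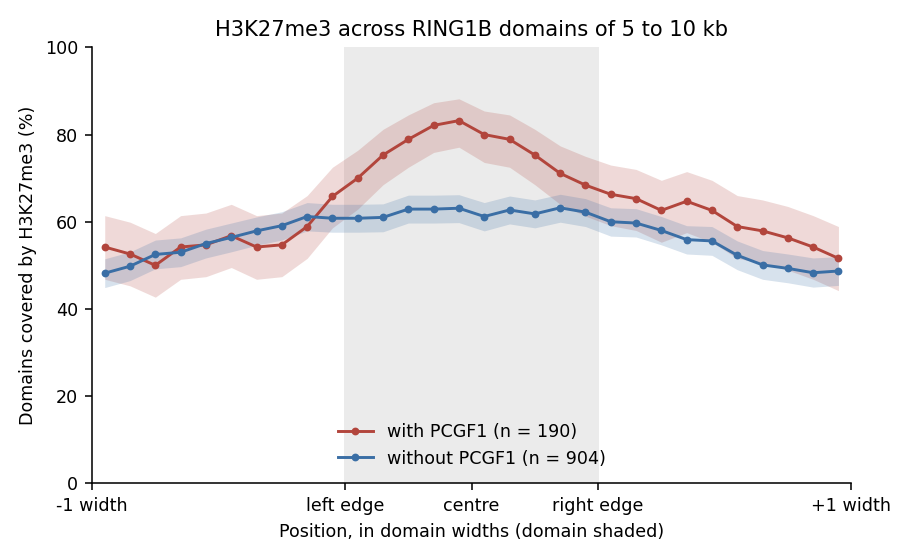
Percent of RING1B domains of 5 to 10 kb covered by a listed H3K27me3 region at positions across the domain (shaded) and 1 domain width to each side, for domains with PCGF1 (red, n = 190) and without it (blue, n = 904). Lines are shares of domains and bands are exact 95% binomial intervals; the red line is highest near the centre, where 83.2% are covered, and the blue line stays near 63.1% inside the domain.

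Where the mark covered a domain only in part, PCGF1 midpoints lay on it no more often than the bases of those domains did. The domains held 299 PCGF1 peaks, 11.6% of the 2569 in that list: 115 domains had 1 peak, 49 had 2, 19 had 3, 6 had 4 and 1 had 5. Their midpoints lay nearer the centre than the edges, with 83 of 299 (27.8%, 22.8 to 33.2) in the central 20% of the domain and 31 (10.4%, 7.15 to 14.4) in its outermost 20%. Of all 299 midpoints, 202 (67.6%, 61.9 to 72.8) lay on H3K27me3. In the 91 domains that were only partly covered, 64 of 138 midpoints did so (46.4%, 37.9 to 55.1), while 64.2% of the bases of those domains were covered. Where such a domain had a single PCGF1 peak, 31 of 60 midpoints lay on the mark (51.7%, 38.4 to 64.8) and 63.3% of bases were covered, which is inside the interval. Coverage was as low at the PCGF1 midpoint as around it: in partly covered domains it was 46.4% at the midpoint, 48.6% at 1 kb and 48.6% at 5 kb to each side. In 44 of the 91 domains (48.4%, 37.7 to 59.1) all PCGF1 midpoints fell off H3K27me3, and in 39 (42.9%, 32.5 to 53.7) all fell on it.

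PCGF1 peaks in domains were wider than the others of their list and about as strong. Their median width was 322 bp (interval of the median 260 to 392), against 218 bp (208 to 227) for the other 2270 PCGF1 peaks. Their median fold was 4.88 (4.83 to 4.93), against 4.78 (4.77 to 4.80). Where a domain held several, neighbouring PCGF1 peaks lay at a median of 781 bp from centre to centre over 109 pairs. Both peaks of a pair belong to 1 domain, so its width limits this distance, and the spacing elsewhere was not computed. A domain without PCGF1 was usually far from any: its nearest PCGF1 peak lay at a median of 284136 bp (interquartile range 90673 to 842684), and 4 of 903 such domains had one within 1 kb. The whole list holds 2569 PCGF1 peaks, and the distance was not computed for other positions of the genome.

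Most domains had another RING1B peak within a few kb. The nearest other RING1B peak lay at a median of 1184 bp (interquartile range 806 to 4604), beside 4453 bp over the whole list. The median was 2067 bp for peaks of 2 to 5 kb and 986 bp for domains above 10 kb, so it fell with width across these classes. No 2 RING1B peaks of the list lay closer than 661 bp. On both sides 90 domains had another peak within 1 kb, on 1 side 379 had one, and 625 had none. When peaks less than 5 kb apart were joined, 833 domains were part of a chain and 261 stood alone. Such chains were wider than 20 kb for 382 domains, and the widest spanned 251211 bp. These values depend on the joining limit: with peaks less than 1 kb apart joined, 75 domains were in chains wider than 20 kb and the widest spanned 71394 bp, and with a limit of 2 kb 177 were and it spanned 132067 bp. These distances come from the call that selected the domains and only describe them.

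Isolated domains were those that held PCGF1 most often. By distance to the nearest other RING1B peak, PCGF1 was present in 54 of 469 domains under 1 kb (11.5%, 8.77 to 14.8), 30 of 221 at 1 to 2 kb (13.6%, 9.35 to 18.8) and 20 of 143 at 2 to 5 kb (14.0%, 8.76 to 20.8). It was present in 30 of 133 at 5 to 20 kb (22.6%, 15.8 to 30.6) and in 56 of 128 above 20 kb (43.8%, 35.0 to 52.8), which are called isolated here. The interval above 20 kb stood clear of the other 4. With the stronger 50% of PCGF1 peaks the share was 27.3% above 20 kb and 9.59% under 1 kb. Among domains of -log10 q of at least 5 it was 43.9% (31.7 to 56.7) above 20 kb and 28.1% (20.8 to 36.3) under 1 kb, and these intervals overlap. The intervals for H3K27me3 overlapped: 88.3% (81.4 to 93.3) of the isolated domains lay on it, and 91.9% (89.0 to 94.2) of those under 1 kb. The median width of isolated domains was 6362 bp (interval of the median 6062 to 6660), against 6538 bp (6354 to 6763) under 1 kb. Per Mb they held 108 PCGF1 peaks (87.5 to 133), against 26.1 (20.9 to 32.4) in domains under 1 kb from another peak.

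RING1B fold moved with both isolation and PCGF1, and its part in either was not tested beyond the division given here. Its median was 4.19 (interval of the median 3.98 to 4.43) in isolated domains and 3.76 (3.69 to 3.81) in those under 1 kb from another peak. It was 4.52 (4.34 to 4.80) in domains with PCGF1 and 3.75 (3.71 to 3.80) in those without. From the lowest to the highest 25% of domains by fold, the share with PCGF1 was 7.66%, 7.33%, 17.2% and 37.2%, while the share on H3K27me3 was 91.6%, 91.2%, 89.0% and 92.0%. The order by distance was seen on either side of the median fold. Among domains above it, 44 of 92 isolated ones held PCGF1 (47.8%, 37.3 to 58.5), against 43 of 205 under 1 kb (21.0%, 15.6 to 27.2). Among domains below it the counts were 12 of 36 (33.3%, 18.6 to 51.0) and 11 of 264 (4.17%, 2.10 to 7.33). Domains off the mark showed the same order in small numbers, with 6 of 15 isolated ones (40.0%, 16.3 to 67.7) and 1 of 38 under 1 kb (2.63%, 0.0666 to 13.8).

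**Figure D4:**
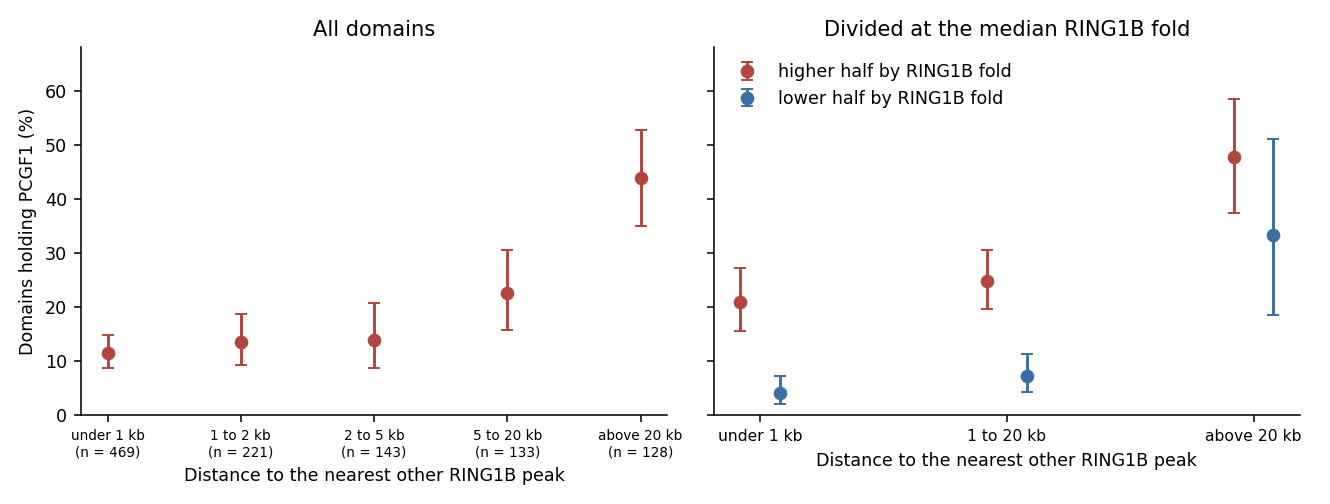
Percent of RING1B domains of 5 to 10 kb holding PCGF1, by distance to the nearest other RING1B peak, for all domains (left, with the number in each class) and for domains above (red) and below (blue) the median RING1B fold (right). Points are values for all domains of a class and bars are exact 95% binomial intervals; the share is 43.8% above 20 kb and 11.5% under 1 kb.

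By share, the same order was present in the narrower class and less clear in the wider one. Of isolated peaks of 2 to 5 kb 33.0% (29.1 to 37.1) held PCGF1, and of those under 1 kb from another peak 4.79% (3.54 to 6.32). Above 10 kb the shares were 40.0% (19.1 to 63.9, 8 of 20) and 23.5% (18.3 to 29.4), whose intervals overlap. Per Mb the intervals stood apart in both classes. Isolated peaks held 149 PCGF1 peaks per Mb (131 to 169) at 2 to 5 kb and 84.1 (55.9 to 122) above 10 kb. Peaks under 1 kb from another held 19.0 (14.4 to 24.5) and 27.9 (23.1 to 33.5). Within the domains, the shares by width had overlapping intervals: PCGF1 was present in 13.9% (10.6 to 17.8) at 5 to 6 kb, 19.9% (15.3 to 25.2) at 6 to 7 kb, 19.1% (14.0 to 25.2) at 7 to 8 kb and 18.4% (13.8 to 23.8) at 8 to 10 kb.

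**Figure D5:**
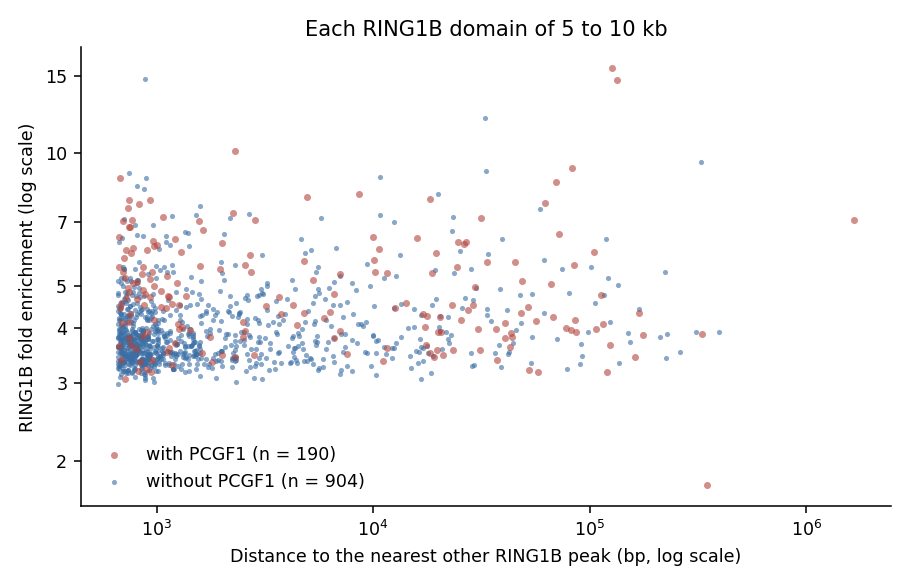
RING1B fold enrichment of each domain of 5 to 10 kb against its distance in bp to the nearest other RING1B peak, both on log scales, for domains with PCGF1 (red, n = 190) and without it (blue, n = 904). Each point is 1 domain; most blue points lie under 2 kb at folds near 3.75, and 1 domain with PCGF1 stands far below the rest at a fold of 1.76.

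Single domains show these layouts. The 10 domains of highest fold, 8.85 to 15.6, included 4 with PCGF1 and 9 on H3K27me3, beside 17.4% and 91.0% of all domains. Of the domains with folds of 4.47 to 15.6, which include these 10, 37.2% held PCGF1. The 10 are thus given as examples, and neither count sets them apart. The highest, chr15:6651433-6659465, had a fold of 15.6, lay 126554 bp from the next RING1B peak, held 1 PCGF1 peak and touched no H3K27me3 region. It was thus an isolated site of strong RING1B that held PCGF1 without the listed mark. Its PCGF1 peak had a fold of 5.08, beside an interquartile range of 4.66 to 5.15 for PCGF1 peaks in domains. The second, chr9:89775288-89780586, had a fold of 14.8, no PCGF1, and another RING1B peak 882 bp away. The third, chr10:98372504-98378697, had a fold of 14.7 and 1 PCGF1 peak, and H3K27me3 covered 5.12% of it.

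The 26 domains with 3 or more PCGF1 peaks had folds of 3.44 to 8.61, above the median of all domains in 23 and below it in 3. Of these 26, 23 lay on H3K27me3, beside 93.7% of all domains with PCGF1. The 1 domain with 5, chr7:152123554-152129505, had a fold of 3.57, below the median of all domains, and was covered to 95.2% by a region of 39180 bp. Among those with 4, chr14:58688860-58696221 had a fold of 8.61 and lay wholly inside a region of 12960 bp, and chr16:23983470-23989543 had a fold of 3.93 and no mark. The most isolated domain, chr4:71860363-71870132, chosen after its values were seen, was 1663588 bp from the next RING1B peak, held 3 PCGF1 peaks and had a fold of 7.05. Of the 5 strongest domains off H3K27me3, with folds of 5.52 to 15.6, 3 held PCGF1, beside 12.1% of all domains off it.

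Of the 5 domains on the tallest H3K27me3 regions, 2 held PCGF1, beside 17.9% of all domains on the mark. The tallest region, of height 1466 beside a list median of 68.5, was 3330 bp wide and touched chr2:125969550-125976653, which had a fold of 4.71 and no PCGF1. The domain chr17:39979939-39985784 stood apart in all 3 lists. Its RING1B fold of 1.76 was the lowest of all domains, with the next at 2.99, yet its -log10 q was 11.0. Its PCGF1 peak had a fold of 1.77, and its H3K27me3 region reached a height of 549 over 1270 bp. Whether a high local background set these values was not tested. The domain is one of the 56 isolated ones with PCGF1, and without it the share was 43.3% (34.5 to 52.4, n = 127).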

How the data were processed

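Chromatin immunoprecipitation of cultured mouse IdHP cells was described from 3 deposited peak lists, each tied by a deposited note to 2 libraries. Reads were handled with Bowtie2, Picard and SAMtools 1.6.0, per the submitters' processing notes, which name the builds mm9 and dm3 without roles; mouse positions are taken to be mm9. For the peak caller, threshold, control and any pooling of libraries, the settings were not given in the sources used here. The RING1B and PCGF1 lists are in the broadPeak layout, in which the deposited fold is a ratio over background, the deposited -log10 q gives its significance, and the deposited score is derived from it and was not used. The H3K27me3 list holds, per the file headers, each region's signal height, its width above the cutoff, and the -log10 p of the height. A caller's threshold and its joining of nearby stretches set how wide a peak is listed, and with it every share by width.

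RING1B peaks with end minus start above 5000 and at most 10000 bp were selected. Overlap meant at least 1 bp. Distances run from edge to edge. Shares, densities and medians with 95% intervals were computed with Python 3.11.15, pandas 2.3.3, numpy 2.4.6 and scipy 1.17.1, and figures drawn with matplotlib 3.10.9; the procedures were checked on simulated lists. Domains were named by fold (the 10 highest), by PCGF1 peaks (3 or more), by H3K27me3 height (the 5 tallest), off H3K27me3 (the 5 highest folds) and at the width limits; not all of them are printed. The members, limits and rules were chosen with earlier results of these data known. Genes and sequences were not assigned, because the gene table used belongs to GRCm38.p6, another build. Alternatives changed the overlap, width limits, merging, chromosomes, and the PCGF1, H3K27me3 and RING1B thresholds.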

Additional observations from a re-analysis of the deposited data

How the results depend on the processing

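Of 96 values recomputed under 10 alternatives fixed with the design and 5 chosen after seeing the data, 79 stayed inside the interval of the reported value and 17 did not. The order of the paired shares held in every setting that gave both: PCGF1 was more frequent above 20 kb than under 1 kb from another RING1B peak in 8 of 8, inside 1 H3K27me3 region than across several in 9 of 9, and on the mark than off it in 11 of 11. The intervals of the 2 shares stood apart in 7 of 8, 9 of 9 and 1 of 11 of these settings in that order, and overlapped for distance among domains of -log10 q of at least 5. The share on H3K27me3, 91.0%, was 81.9% when 50% of the shorter interval had to be covered, 85.1% with the taller 50% of regions and 88.4% with regions trimmed by 500 bp at each end. The median covered share, 72.1%, was 68.6% with RING1B peaks less than 1 kb apart merged and 60.3% with trimmed regions. With the stronger 50% of PCGF1 peaks, the share holding PCGF1 was 12.2% over all domains, 12.6% on the mark, 27.3% above 20 kb and 19.9% inside 1 region, and the density was 22.9 per Mb. With domains of -log10 q of at least 5, it was 31.8% over all domains, 33.2% on the mark, 28.1% under 1 kb, 47.9% inside 1 region and 13.3% across several, and the density was 70.0 per Mb. With widths of 4 to 8 kb the density was 45.4 per Mb. Fewer peaks in a shortened list lower its shares by construction; otherwise the cause was not tested. The trimmed regions, the gap limits, the setting without the domain of the lowest RING1B fold and the comparisons by distance and by layout were chosen after seeing the data. No paired analysis was possible because the 2 libraries of an antibody share 1 list. Read depth is unknown, so a domain without a listed PCGF1 peak is not shown to lack PCGF1.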

Other observations

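Domains that shared a neighbourhood with several other domains held PCGF1 less often. In windows of 1 Mb, 95 of 370 domains that were alone in their window held PCGF1 (25.7%, 21.3 to 30.4), as did 51 of 258 in windows of 2 (19.8%, 15.1 to 25.2) and 44 of 466 in windows of 3 or more (9.44%, 6.94 to 12.5). The intervals for 1 and 2 domains overlap, and that for 3 or more stands apart from both. Over all domains 17.4% held PCGF1 and 91.0% lay on H3K27me3. The densest window, 21 to 22 Mb on chromosome 13, had 14 domains, all on H3K27me3, of which 1 held PCGF1. On chromosome 16, the window of 81 to 82 Mb had 8 domains, of which 5 touched the mark and none held PCGF1, and the median domain there was covered over 13.7% of its bases. On chromosome 2, the window of 103 to 104 Mb had 7 domains, all on the mark, with full cover at the median, and none held PCGF1. These windows were chosen after their values were seen, and domains in a window are not independent of each other.

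Chromosomes differed in how many RING1B peaks were domains, with 2.22% (1.34 to 3.45) on chromosome 8 and 5.94% (4.82 to 7.23) on chromosome 3. PCGF1 was present in 19 of 60 domains on chromosome 5 (31.7%) and in 14 of 138 on chromosome 2 (10.1%), and on X in 1 of 23, beside 17.4% of all domains. Other chromosomes lay close to the first 2 shares, with 30.8% on chromosome 10 and 9.59% on chromosome 11. The chromosomes were named after their values were seen, and no intervals were computed for these shares, so no difference between chromosomes in PCGF1 is shown. Of the 1172 H3K27me3 regions on domains, 1109 touched 1 domain, 56 touched 2 and 7 touched 3 or more. One region, chr17:35519860-35613550, carried 4 domains over 93690 bp.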
